A study of Mus musculus with 12 samples.

Results

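The genes of the CXCR3 and CXCR6 chemokine axis were followed across the immune cells of mouse tumors: the ligands Cxcl9, Cxcl10 and Cxcl16 and the receptors Cxcr3 and Cxcr6. These 5 genes were taken by name from the 31053 genes of the feature table, and all 5 were detected. They were described in cell classes defined by the unique molecular identifiers (UMIs) of lineage genes, with none of the 5 used in a definition.

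CXCL9 and CXCL10 are secreted chemokines that cells produce in response to interferons, and both bind CXCR3, a receptor of activated T cells and NK cells. CXCL16 is made as a membrane-bound protein that proteases can shed, and it binds CXCR6, a receptor of tissue-resident and effector T cells. In tumors, macrophages and dendritic cells are known sources of these ligands, and the receptors guide and hold T cells near them.

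The data are scRNA-Seq counts of CD45+ cells, enriched with microbeads from subcutaneous MC38 tumors, a colon carcinoma line, in C57BL/6 mice. The 12 samples formed 4 groups of 3, and whether each came from a single mouse is not given in the labels. The groups were vehicle for 7 days, EZH2i (PF-06821497, an inhibitor of the methyltransferase EZH2, at 100 mg/kg daily) for 7 days, and vehicle or the same EZH2i dose for 16 days. Dosing began 10 days after implantation for the 7 day groups and 1 day after it for the 16 day groups, with harvest on day 17. Each barcode ends in 1 of 12 library numbers, which match no label of a sample. The study gives cell numbers for each group, but libraries were not assigned to groups by their order or cell numbers, and EZH2i was not compared with vehicle here. The libraries were not treated as replicates of a group and no p-value is given. Levels are given as the lowest, median and highest value over libraries with at least 20 cells of a class. A level is the UMIs of a gene per 1000000 UMIs of the class in a library (CPM).

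Of 140639 barcodes, 128912 cells passed the filters, and 76.2% of these fell into 1 of the classes. The libraries held 21649947 to 158760328 UMIs, and the median UMIs per cell ranged from 2291 to 15081. Library 4 stood apart, with the fewest T cells (0.389% of its cells, against a median of 4.88% over the libraries). Transcripts of Y-linked genes were present in libraries 1 to 6 and at 0 UMIs in libraries 7 to 12, whereas the methods name female mice. This split cannot be told apart from other differences between these sets of libraries, the dosing schedule included. Only 1.63% of the barcode sequences occurred in more than 1 library, with at most 182 shared by a pair. Of 36 genes used to check the classes, 28 were highest in their own class. In Cd209a+ cells only 1 of 3 was, so that class is called by its gene. In type 1 dendritic cells, defined by Xcr1 and Clec9a, only Naaa of 3 was, while Irf8 was higher in plasmacytoid dendritic cells (2414 against 1255 CPM) and Cd24a in neutrophils (770 against 269 CPM), so the name rests on the defining genes. Conventional CD4 T cells were T cells with Cd4 and no Cd8a, Cd8b1 or Foxp3 UMIs, and Foxp3 had only 83 UMIs in all cells. They were the class next to regulatory T cells for all 3 check genes of those cells. Ikzf2 was at 583 against 1378 CPM, Ctla4 at 471 against 1547 CPM and Il2ra at 199 against 687 CPM. How many regulatory T cells without a Foxp3 UMI this class includes was not tested. The 2 keratin genes used for tumor cells had 189 UMIs in all, and no cell passed as a keratin-positive tumor cell, so ligand transcripts of the tumor cells themselves were not described.

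Cxcl9 and Cxcl10 lie next to each other on mouse chromosome 5, and their upstream sequences are shown. The 2 ligands of CXCR3 differed in which classes held their transcripts, and a link between this and the sequences was not tested. In the GRCm38 annotation (GENCODE M21), Cxcl9 (ENSMUSG00000029417) spans chr5:92321347-92328079 and Cxcl10 (ENSMUSG00000034855) spans chr5:92346638-92348889, both on the minus strand, with 18558 bases between them. Below are the 250 bases before each start site (RefSeq, GRCm38.p6, minus strand), at chr5:92328080-92328329 for Cxcl9 and chr5:92348890-92349139 for Cxcl10. Capitals mark matches on either strand to kappa B (GGGNNTTCC), the interferon-stimulated response element (ISRE, a pair of GAAA parted by any 2 bases) or the gamma-activated site (GAS, TTCNNNGAA).
Cxcl9: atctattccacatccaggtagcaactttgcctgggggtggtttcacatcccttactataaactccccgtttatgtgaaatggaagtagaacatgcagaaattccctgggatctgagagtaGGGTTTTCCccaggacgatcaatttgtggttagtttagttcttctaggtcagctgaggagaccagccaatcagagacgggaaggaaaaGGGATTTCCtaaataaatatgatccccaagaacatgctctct
Cxcl10: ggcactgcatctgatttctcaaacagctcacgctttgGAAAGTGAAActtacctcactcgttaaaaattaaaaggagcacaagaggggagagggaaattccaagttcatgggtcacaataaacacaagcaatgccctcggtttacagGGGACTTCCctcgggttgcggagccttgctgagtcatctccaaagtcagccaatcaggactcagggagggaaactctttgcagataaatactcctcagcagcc
Positions are counted back from the start site. Cxcl9 held kappa B matches at -130 to -122 (GGGTTTTCC) and at -42 to -34 (GGGATTTCC). Cxcl10 held an ISRE match at -213 to -204 (GAAAGTGAAA) and a kappa B match at -103 to -95 (GGGACTTCC). Over 32536 promoter windows of the same length, 1627 held the kappa B letters (5.0006%), 969 the ISRE letters (2.98%) and 2291 the GAS letters (7.04%). The windows of Cxcr3 and Cxcr6 held no match. A match describes letters only, and binding was not measured. Only the patterns given above were searched, so elements with other letters or lengths are not marked.

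Cxcl16 (ENSMUSG00000018920) lies at chr11:70453983-70459984 on the minus strand, Cxcr3 (ENSMUSG00000050232) at chrX:101731535-101734269 on the minus strand, and Cxcr6 (ENSMUSG00000048521) at chr9:123806475-123811760 on the plus strand. Art3 covers Cxcl10, Fyco1 covers Cxcr6, and Zmynd15 overlaps 552 bases of Cxcl16, each on the opposite strand. Whether counting used strand is not given in the sources used here. Without it, reads of these pairs could not be told apart.

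Cxcl9 was highest in the C1q+ and Ly6c2+ myeloid cells. In macrophages, it ranged from 47.5 CPM in library 4 to 964 CPM in library 9, with a median of 415 CPM over 12 libraries. The classes next to them were close. Ly6c2+ C1q+ cells, which carry monocyte and macrophage genes together, had 54.3 to 1036 CPM (median 506) and were above macrophages in 11 of 12 libraries, by 1.27-fold at the median. Ly6c2-high monocytes had 20.01 to 998 CPM (median 378) and were above macrophages in 6 of 12 libraries, so these classes could not be ordered. Type 1 dendritic cells, the cross-presenting subset, had 94.9 to 611 CPM (median 234). Macrophages were above them in 9 of 11 libraries, the exceptions being libraries 3 and 4, but on equal depth (1000 UMIs per cell) the median log2 ratio fell from 0.65 to 0.01.

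Neutrophils and mature migratory dendritic cells carried little Cxcl9. Neutrophils had 0 to 109 CPM (median 22.4), and macrophages were above them in 10 of 10 libraries, by 15.2-fold at the median (log2 3.92, lowest 1.38, highest 5.78). Mature dendritic cells, which have left their uptake state and express Ccr7, had 0 to 203 CPM (median 37.1), and macrophages were above them in 12 of 12 libraries, by 6.32-fold (log2 2.66). A gene was called when it differed in the same direction in every library and by at least 2-fold at the median, among genes with a median of at least 20 CPM in either class. By this rule 38.4% of 5875 genes were higher in macrophages than in neutrophils, and 2 of the 3 ligands, Cxcl9 and Cxcl16, were among them. Against mature dendritic cells 21.1% of genes were higher, with Cxcl9 and Cxcl10 among them. Without library 4, the log2 ratios for Cxcl9 were 4.39 against neutrophils and 2.87 against mature dendritic cells.

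**Figure D1:**
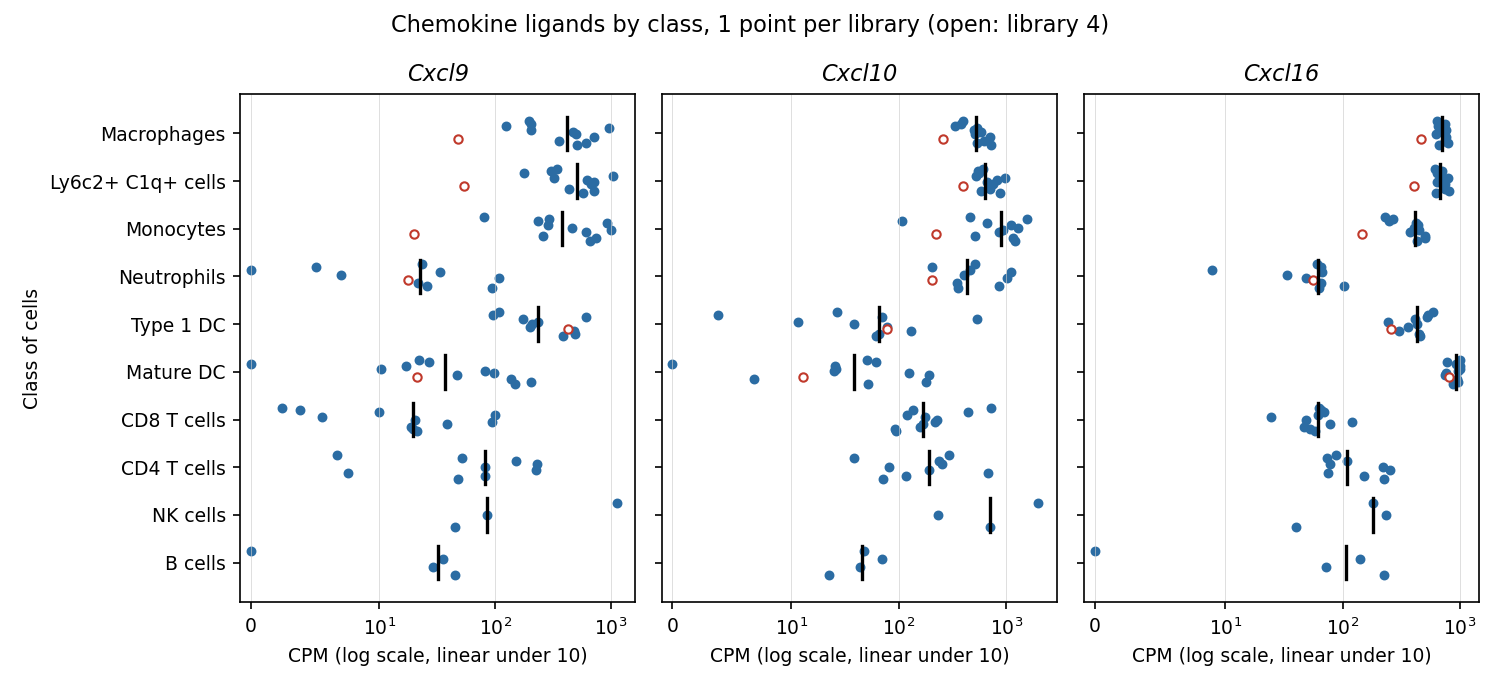
Levels of Cxcl9, Cxcl10 and Cxcl16 by cell class (CPM on a scale that is logarithmic above a linear part near 0, 1 point per library with at least 20 cells, bar at the median, open points for library 4). Cxcl9 medians are 415 in macrophages and 22.4 in neutrophils, while Cxcl10 medians are 522 and 431 and their ranges overlap.

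Cxcl10 had a different order by median. Ly6c2-high monocytes had the highest median, 899 CPM, with a range from 106 in library 10 to 1539 in library 11. This level was carried by few cells, since the 10% of monocytes with the most Cxcl10 held 67.2 to 96.2% of its UMIs (median 85.0%). At least 1 UMI was found in 34.0% of monocytes and 42.7% of macrophages, and on equal depth in 20.8% and 21.8%. Cd209a+ cells had 84.2 to 2306 CPM (median 734) over 6 libraries with 21 to 33 of these cells each, and Ly6c2+ C1q+ cells had 390 to 966 CPM (median 630). Cd209a+ cells were below monocytes in 4 of 6 libraries and above Ly6c2+ C1q+ cells in 3 of 6. They could not be ordered against either class. Macrophages had 256 CPM in library 4, 722 in library 1 and a median of 522. They were below the Ly6c2+ C1q+ cells in 11 of 12 libraries (1.34-fold) and below the monocytes in 9 of 12 (1.44-fold), which falls short of a call in both comparisons, where 0.946% and 4.37% of genes were called lower in macrophages.

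Neutrophils were the class in which the 2 CXCR3 ligands parted most. Their Cxcl10 ranged from 202 to 1092 CPM (median 431), and macrophages were above them in 5 of 10 libraries, with a median log2 ratio of -0.03 that took both signs when single libraries were left out (-0.38 to 0.32). In neutrophils there were 22.2 UMIs of Cxcl10 per UMI of Cxcl9 at the median of 9 libraries (3.78 to 56.6), against 1.57 in macrophages (0.551 to 5.39). The neutrophil ratios rested on only 1 to 18 UMIs of Cxcl9 per library, and library 10, with 0, gave none. The neutrophils that held Cxcl10 were few: 12.99% had at least 1 UMI of it at a median depth of 1380 UMIs, and 9.73% on equal depth. On equal depth the share was 9.83% in CD8 T cells and 1.86% in B cells (2.88% without library 10). The neutrophil share was thus near that of CD8 T cells. Whether free RNA or cells captured together take part in the neutrophil counts was not tested. The 10% of neutrophils with the most Cxcl10 held 92.5 to 100% of its UMIs (median 97.5%).

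Type 1 dendritic cells went the other way. They had 3.88 to 527 CPM of Cxcl10 (median 64.9), and macrophages were above them in 10 of 11 libraries, by 8.999-fold at the median (log2 3.17). As this was not every library, Cxcl10 was not among the 15.9% of genes called higher. Library 8 was the exception, and 1 cell held 281 of the 543 Cxcl10 UMIs of the class (51.7%). The ratio of Cxcl10 to Cxcl9 UMIs was 0.181 in these cells at the median (0.0408 to 3.02). Mature dendritic cells had 0 to 192 CPM (median 38.0) and were below macrophages in 12 of 12 libraries, by 15.6-fold (log2 3.96). Their ratio of Cxcl10 to Cxcl9 UMIs was 1.26 at the median of 11 libraries and that of Cd209a+ cells 2.76 over 6, both within the range of macrophages. Ratios are of 3′ tag counts not scaled to gene length, so they are set against each other between classes and not read as one gene exceeding the other.

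Of the ligands, Cxcl16 had the narrowest range over libraries in macrophages, and it alone was high in mature dendritic cells. Those cells had 740 to 1006 CPM (median 930.5), above macrophages in 11 of 12 libraries by 1.32-fold, short of a call where 12.8% of genes were called. Macrophages had 465 CPM in library 4 and up to 788 CPM in library 2 (median 706). Ly6c2+ C1q+ cells could not be ordered against them (median 669 CPM, macrophages above in 8 of 12 libraries). Type 1 dendritic cells had 245 to 584 CPM (median 432) and were below macrophages in 11 of 11 libraries, by 1.76-fold. Ly6c2-high monocytes had 147 to 506 CPM (median 411) and were below macrophages in 12 of 12 libraries, by 1.73-fold, where 5.68% of genes were called higher in macrophages and Cxcl16 did not reach 2-fold. Type 1 dendritic cells and monocytes could not be ordered (5 of 11 libraries). Neutrophils had 8.98 to 103 CPM (median 61.7), 10.1-fold under macrophages (log2 3.34, 10 of 10 libraries).

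More macrophages had a UMI of Cxcl16 than of Cxcl9 or Cxcl10, whose UMIs were concentrated in fewer cells. At a median depth of 5554 UMIs, 88.3% of 78437 macrophages had a Cxcl16 UMI, 42.7% a Cxcl10 UMI and 39.8% a Cxcl9 UMI (exact binomial 95% interval 39.4 to 40.1%, counting error only). Over libraries, which differed in depth, the shares ran from 75.9 to 98.2% for Cxcl16, 22.6 to 54.97% for Cxcl10 and 5.77 to 60.1% for Cxcl9. On equal depth the shares were 47.7%, 21.8% and 21.3%. B cells stand for background here, as a class chosen for comparison and not as a measure of free RNA. Their shares at a median of 1284 UMIs were 4.25%, 3.12% and 1.98%, and on equal depth 3.72%, 1.86% and 1.49%. Of the 353 B cells, 176 came from library 10, and without it the shares on equal depth were 7.19%, 2.88% and 2.88%. The 10% of macrophages with the most UMIs of a gene held 53.9 to 100% of the Cxcl9 UMIs (median 72.5%), 61.4 to 89.5% of the Cxcl10 UMIs (median 77.3%) and 22.5 to 32.5% of the Cxcl16 UMIs (median 24.3%). One macrophage held 523 UMIs of Cxcl10, whereas no macrophage held more than 64 of Cxcl16.

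A ligand was found somewhat more often in macrophages with a UMI of another ligand than in those without one. On equal depth, Cxcl9 was found in 23.9% of the cells with Cxcl10 and in 16.3% of those without it at the median, higher in 12 of 12 libraries, and 4.86% of cells held both. Cxcl9 was found in 19.98% of cells with Cxcl16 and 15.8% of those without (11 of 12 libraries), and Cxcl10 in 20.3% against 17.3% (12 of 12). These are co-detections within libraries, and cells of 1 library share its free RNA.

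Among macrophages, Cxcl9 followed the MHC class II genes, the antigen-presenting molecules that interferon gamma also induces. Macrophages were split in each library at the median share of UMIs on H2-Aa, H2-Ab1 and H2-Eb1. The MHC-II high cells had 69.9 to 1362 CPM of Cxcl9 (median 612) and the MHC-II low cells 21.9 to 560 CPM (median 212). Cxcl9 was higher in 12 of 12 libraries, by 2.65-fold at the median (log2 1.41, range 0.90 to 2.52). Only 0.739% of 5547 genes were higher by this rule, and Cxcl9 was the 1 ligand among them. Cxcl10 did not follow the split, with medians of 526 and 499 CPM and 8 of 12 libraries higher. Cxcl16 was higher in 12 of 12 libraries but by 1.19-fold (medians of 775 and 638 CPM). The median UMIs per cell were close, 5616 and 5494, and the log2 ratio of Cxcl9 was 1.45 on equal depth and 1.33 without library 4.

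All 3 ligands were lower in macrophages with at least 2 UMIs of Arg1, which encodes arginase, than in those with none. The median of Cxcl9 was 336 against 501 CPM, that of Cxcl10 443 against 604 CPM, and that of Cxcl16 665 against 792 CPM, each lower in 12 of 12 libraries. The ratios were 0.610, 0.710 and 0.865. Macrophages with Folr2, a folate receptor of tissue-resident macrophages, showed the same order against those without it. The medians were 255 against 443 CPM for Cxcl9, 413 against 539 CPM for Cxcl10 and 600.5 against 726 CPM for Cxcl16, lower in 12 of 12 libraries with ratios of 0.576, 0.737 and 0.844. No ligand reached 2-fold in these splits, where 0.128% and 0.414% of genes were called lower. The cells with Arg1 or Folr2 UMIs were deeper (median 7561 against 4040 UMIs, and 8731 against 5078). On equal depth the log2 ratios of Cxcl9 were -0.74 for Arg1 and -0.83 for Folr2, again lower in 12 of 12 libraries.

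**Figure D2:**
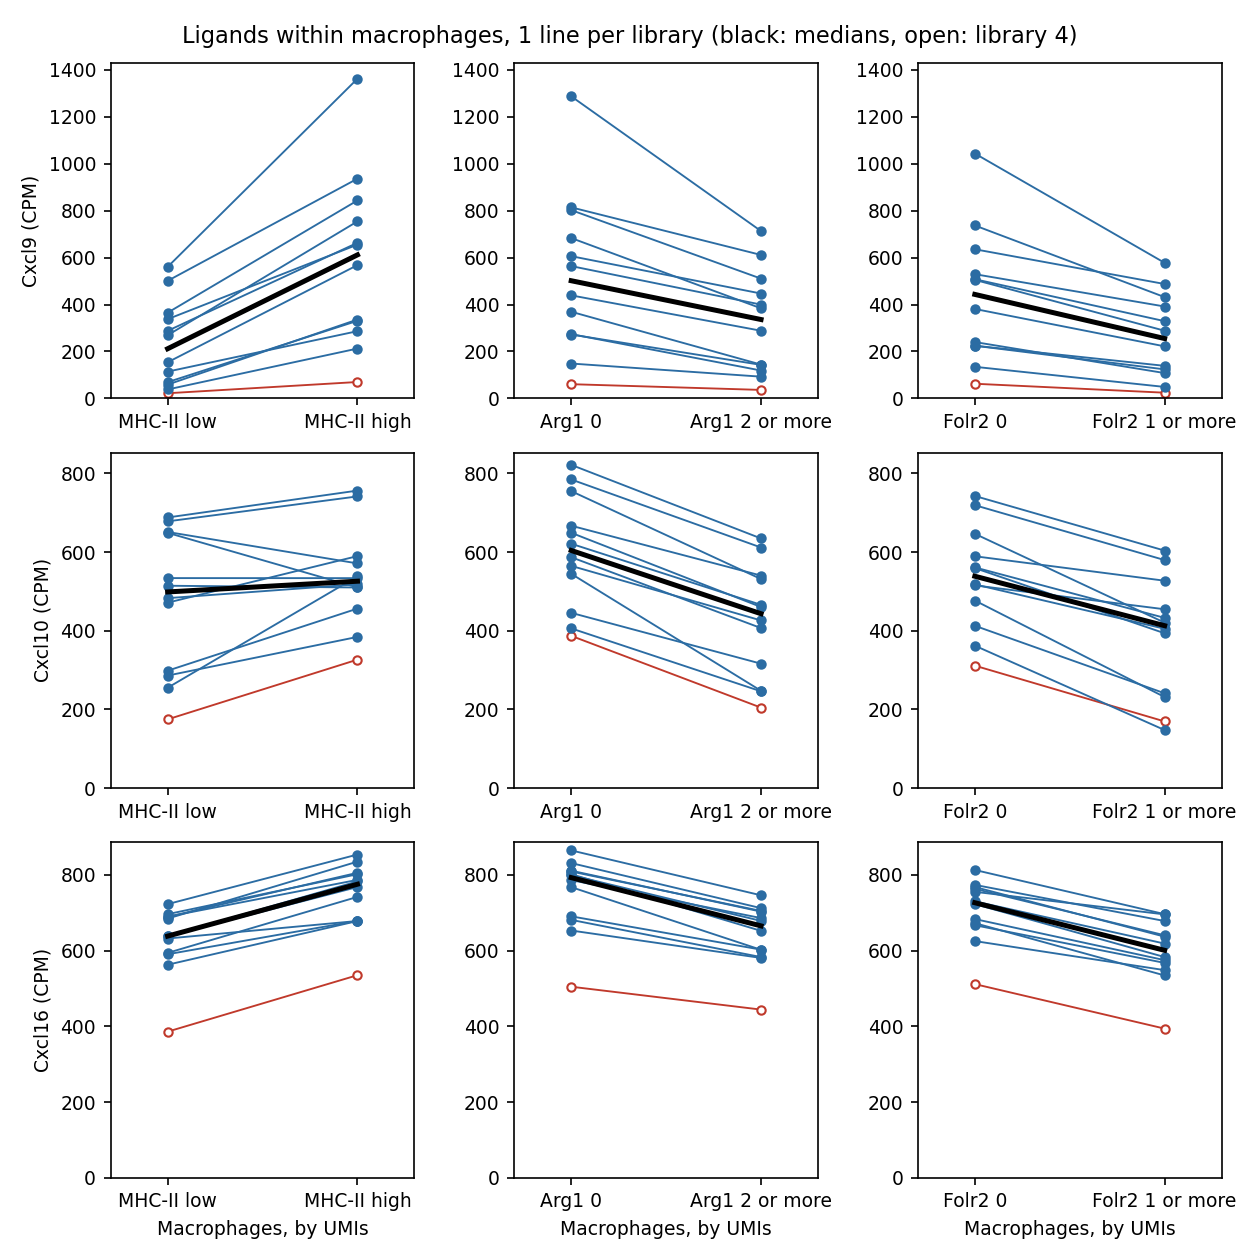
Ligand levels (CPM) in macrophages split by MHC-II share, by Arg1 UMIs and by Folr2 UMIs, with 1 line per library, the medians in black and library 4 in open points. Cxcl9 rises from 212 to 612 with MHC-II at the median, Cxcl10 goes from 499 to 526, and all ligands are lower with Arg1 or Folr2.

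In macrophages, the libraries differed most in Cxcl9 among the 3 ligands. Over the 12 libraries the macrophage level of Cxcl9 went from 47.5 to 964 CPM, that of Cxcl10 from 256 to 722 CPM and that of Cxcl16 from 465 to 788 CPM, and library 4 was lowest in all 3. Library 4 also had the lowest macrophage level of Irf1, an interferon-induced transcription factor (36.8 CPM against a highest level of 134 in library 5). In its 23 type 1 dendritic cells Cxcl9 was at 425 CPM, but only 13.04% of these cells held a UMI of it, the lowest share of the 12 libraries. The ranges of libraries with and without Y-linked transcripts overlapped for every ligand in macrophages, with medians of 504 and 205 CPM for Cxcl9, 573 and 448 CPM for Cxcl10 and 706 and 706 CPM for Cxcl16.

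Of the interferon gamma signalling genes, Ifng itself lay in the lymphocytes. Ifng ranged from 21.8 to 326 CPM in CD8 T cells (median 77.5) and from 33.5 to 359 CPM in conventional CD4 T cells (median 118), against at most 0.659 CPM in macrophages. The list of 8 genes, which includes the receptor Ifngr1 and the kinase Jak2, was compared by calls between pairs of classes. Whether interferon gamma signalling sets the ligand differences was not tested. In each comparison below, 7 of the 8 genes reached the minimum level of the call rule. Mature dendritic cells carried little Cxcl9 or Cxcl10. Against them, macrophages were higher in 1 of 7 genes (Ifngr1, 149 against 64.4 CPM) and lower in 4, beside 21.1% and 12.8% of all genes. Among the genes lower in macrophages were Jak2 (42.3 against 379 CPM), the transcription factor Irf1 (68.9 against 194 CPM) and the feedback inhibitor Socs1 (24.7 against 83.3 CPM). Against neutrophils 0 of 7 were higher and 4 lower, beside 38.4% and 13.8% of all genes. In the MHC-II split 0 of 7 were called, beside 0.739% of all genes higher and 0.451% lower.

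Of the proteases that act on these chemokines, Adam10 and Adam17, the sheddases of CXCL16, were called higher in macrophages than in mature dendritic cells, beside 21.1% of all genes. Adam10 was at 115 against 34.2 CPM and Adam17 at 120 against 30.0 CPM at the median. Dpp4, which trims and inactivates CXCR3 ligands, was lower in macrophages (2.59 CPM) than in mature (86.9 CPM) and type 1 (98.4 CPM) dendritic cells, beside 12.8% and 7.31% of all genes. Pf4, which encodes another chemokine reported to bind CXCR3, had a median of 656 CPM in macrophages and 4899 CPM in library 4. Unlike Cxcl9 it was lower in MHC-II high macrophages (375 against 977 CPM) and higher in those with Arg1 (854 against 489 CPM) or Folr2 (1231 against 596 CPM), in 12 of 12 libraries each. Each of these differences passed the call rule, beside 0.451% of genes called lower with MHC-II, 0.784% called higher with Arg1 and 0.756% called higher with Folr2. Ackr3, a scavenger receptor, had at most 11.98 CPM in macrophages, in library 4. Cxcl11 was not among the genes of the feature table.

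Cxcr6 was counted almost entirely in T cells. Conventional CD4 T cells had 162 to 422 CPM (median 260) over 9 libraries, and CD8 T cells had 89.9 to 297 CPM (median 167) over 11. CD4 T cells were above CD8 T cells in 8 of 9 libraries, by 1.29-fold, without reaching 2-fold, where 3.63% of genes were called lower in CD8 T cells. T cells without Cd4, Cd8a, Cd8b1 or Foxp3 UMIs had 76.3 to 421 CPM (median 147). The rarer T cells were pooled. The 34 regulatory T cells held 49 UMIs of Cxcr6 (218 CPM), 34 of them in library 8 and 139.5 CPM without it. The 98 gamma delta T cells held 78 UMIs (253 CPM).

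Outside the T cells, Cxcr6 was near 0. The 78437 macrophages held 221 UMIs (0.393 CPM pooled), 116 of them in library 6, monocytes 7, neutrophils 4, type 1 dendritic cells 4 and mature dendritic cells 3 UMIs. Pooled, CD8 T cells were 484-fold above macrophages, and 941-fold without library 6. They were above macrophages in 11 of 11 libraries and above type 1 dendritic cells in 10 of 10. Both receptors were called higher in CD8 T cells than in macrophages, beside 12.7% of genes, and Cxcr6 was called against type 1 dendritic cells, beside 14.3%.

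Cxcr3 was found in T cells and in type 1 and plasmacytoid dendritic cells. CD8 T cells had 6.49 CPM in library 3, 88.1 in library 8 and a median of 40.0 over 11 libraries. CD4 T cells had 11.7 to 98.9 CPM (median 35.6), and CD8 T cells were above them in 3 of 9 libraries with a median ratio of 1.15-fold in favour of CD4, so these classes could not be ordered. Macrophages had 0.297 to 1.13 CPM (median 0.677), and CD8 T cells exceeded them by 49.0-fold (log2 5.61, 11 of 11 libraries). The 34 regulatory T cells held 19 UMIs (84.7 CPM pooled), and 26.5% of them had at least 1 (exact interval 12.9 to 44.4%). Of these UMIs 17 came from library 8, without which the level was 18.6 CPM and the share 10.5%.

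Type 1 dendritic cells held Cxcr3 in every library, at 6.50 to 36.5 CPM (median 21.4). They were above macrophages in 11 of 11 libraries, by 27.2-fold (log2 4.77), a call made for 7.31% of genes, at nearly the same depth (median 5416 and 5554 UMIs). At least 1 Cxcr3 UMI was found in 12.97% of them and in 0.474% of macrophages, and on equal depth in 1.16% and 0.0796%. On equal depth the share of type 1 dendritic cells (exact interval 0.503 to 2.28%) was not separated from that of B cells (0.372%, 0.00941 to 2.05%). With all UMIs pooled, the levels were 22.1 CPM in type 1 dendritic cells and 5.70 CPM in B cells, the latter from 4 UMIs. CD8 T cells were above type 1 dendritic cells in 8 of 10 libraries, by 1.79-fold. The 128 plasmacytoid dendritic cells, the interferon-producing subset, held 15 UMIs (36.4 CPM pooled) in 11.7% of the cells. Mature dendritic cells held 1 UMI, monocytes 4, and the 222 Cd209a+ cells 0. The floor of 3 counts allows Cd209a+ cells a share with a UMI of up to 1.35% (exact upper limit 1.65%).

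**Figure D3:**
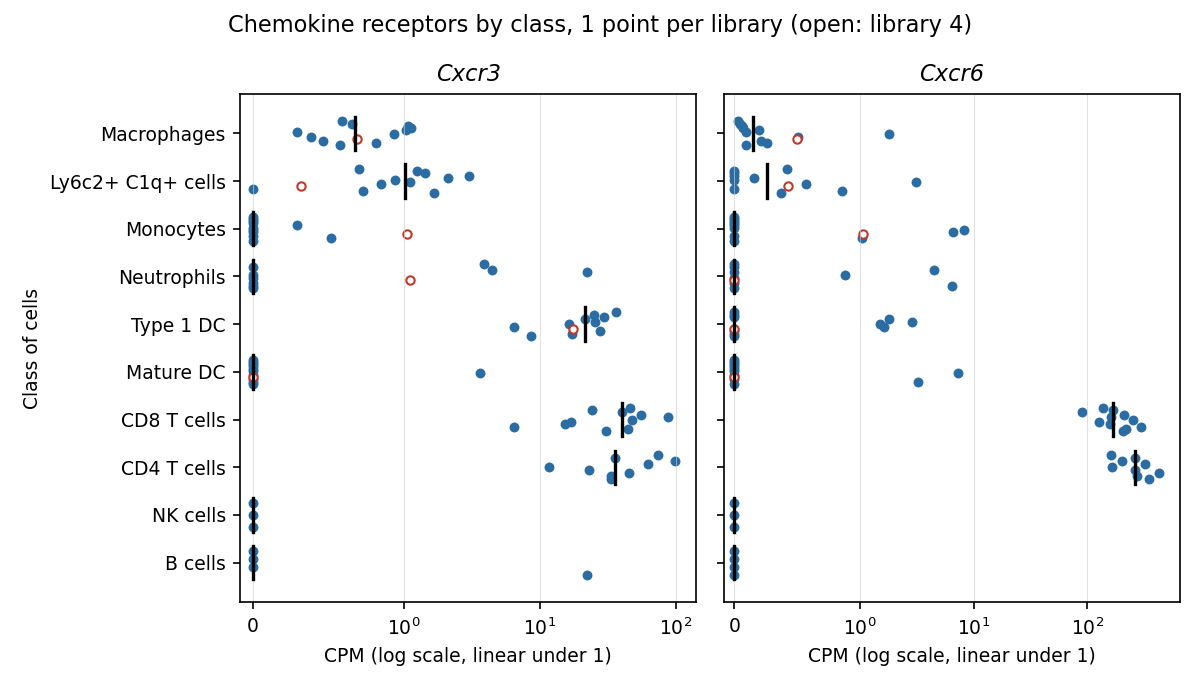
Levels of Cxcr3 and Cxcr6 by cell class (CPM on a scale that is logarithmic above a linear part near 0, 1 point per library with at least 20 cells, bar at the median, open points for library 4). Cxcr6 is seen in T cells (medians 167 in CD8 and 260 in CD4) and near 0 elsewhere, and Cxcr3 also in type 1 dendritic cells (median 21.4).

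NK cells, a known CXCR3+ population, were at background for both receptors. The 212 NK cells held 3 UMIs of Cxcr3 and 3 UMIs of Cxcr6, the latter all in 1 cell of library 12, at a median depth of 2095 UMIs. The share with Cxcr3 was 1.42% (exact interval 0.293 to 4.08%), beside 1.13% of the B cells (2.26% without library 10) and 12.01% of CD8 T cells. At this number and depth Cxcr3 was not detectable above background. Their class was otherwise as labelled, with Klrd1, Gzma and Klrk1 highest in it. When NK cells with T cell receptor beta constant UMIs were also admitted, a choice made after seeing the data, 350 cells held 12 UMIs of each receptor (9.71 CPM).

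The receptors differed between CD8 T cell states. CD8 T cells with Tcf7 and no Havcr2, a memory-like or stem-like state, were set beside those with Havcr2 (TIM-3) and no Tcf7, an effector or exhausted state, in the 5 libraries with at least 20 cells of each. In the Tcf7+ cells, Cxcr3 was 62.5 CPM in library 2, 6.78 in library 5, 31.2 in library 6, 85.9 in library 7 and 95.4 in library 8. In the Havcr2+ cells of the same libraries it was 11.7, 5.96, 11.0, 13.4 and 54.1 CPM. Cxcr3 was lower in the Havcr2+ cells in 5 of 5 libraries, by 3.05-fold at the median (log2 -1.61, range -2.67 to -0.55), though the levels in library 5 rested on 1 UMI in Tcf7+ and 3 in Havcr2+ cells and those in library 6, which sets the median, on 2 and 3. Without library 6 the median log2 ratio was -1.58, and over the other single libraries left out it ranged from -1.97 to -1.21. By this rule 2% of 5911 genes (118) were lower.

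Cxcr6 ran in the opposite direction. In the Tcf7+ cells it was 56.8, 54.3, 46.7, 172 and 160 CPM in libraries 2, 5, 6, 7 and 8, and in the Havcr2+ cells 342, 187, 94.998, 285 and 189 CPM. It was higher in 5 of 5 libraries, by 1.78-fold at the median (log2 0.83, range 0.23 to 2.52), so it fell short of the 2-fold call that 1.12% of genes reached. When each cell was weighted equally the log2 ratio was 1.83. Over the cells of all libraries, Cxcr6 was found in 58.3% of Havcr2+ and 25.1% of Tcf7+ cells and Cxcr3 in 8.61% and 20.7%. The Havcr2+ cells were deeper (median 5180 against 3348 UMIs). On equal depth the shares were 22.4% and 6.33% for Cxcr6, and 2.60% and 6.33% for Cxcr3. On equal depth Cxcr6 stayed higher in the Havcr2+ cells in 5 of 5 libraries, while Cxcr3 was lower in 3 of 5 (median log2 ratio -2.10), so its call did not hold there. It did not hold with a mitochondrial limit of 5% either (lower in 4 of 5, log2 -1.14).

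Cells with neither gene and cycling cells were counted over other sets of libraries and were not ordered against these states. Cells with neither had a median of 34.5 CPM of Cxcr3 and 184 CPM of Cxcr6 over 10 libraries. Cycling cells, with at least 2 UMIs of Mki67 and Top2a and taken from any of these states, had 16.4 and 182 CPM over 8 libraries. Among the 7 other chemokine and egress receptors, 2 were called lower in Havcr2+ cells, beside 2% of all genes: Ccr7, the lymph node homing receptor (42.1 against 182 CPM), and Cxcr4 (139 against 360 CPM). None was called higher, beside 1.12% of all genes, and none of Tbx21, Eomes and Runx3, transcription factors that act on these receptors, was called (Tbx21 at 46.7 against 54.3 CPM, Eomes at 60.8 against 125 CPM).

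**Figure D4:**
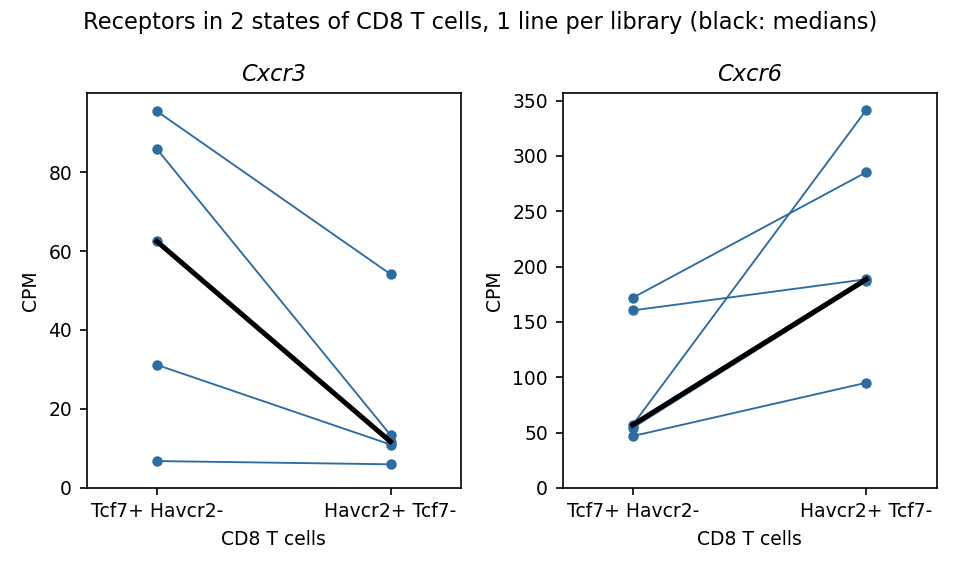
Cxcr3 and Cxcr6 (CPM) in CD8 T cells with Tcf7 and no Havcr2 and with Havcr2 and no Tcf7, with 1 line for each of the 5 libraries and the medians in black. With all UMIs counted, every Cxcr3 line falls (medians 62.5 and 11.7) and every Cxcr6 line rises (medians 56.8 and 189). On equal depth, which is not drawn, Cxcr3 did not fall in every library.

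Detection of Cxcr3 with and without Cxcr6 was compared over the cells of all libraries, whose share of CD8 T cells with Cxcr3 ran from 2.89 to 38.5%. Cxcr3 was found in 11.99% of the 1201 CD8 T cells with Cxcr6 (exact interval 10.2 to 13.96%) and in 12.02% of those without it (10.7 to 13.4%), and 144 cells (4.22%) held both. Without library 6 the shares were 13.3% and 16.05%, while over all T cells they were 13.7% and 11.4%, so no direction is read from them. On equal depth the shares were 3.70% and 5.16%, with overlapping intervals. In conventional CD4 T cells, Cxcr3 was found in 18.1% of cells with Cxcr6 and in 18.9% of those without, and without library 8 in 12.5% and 10.3%.

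Transcripts of the ligands were also counted in lymphocytes, and Cxcl10 stood out among them. In CD8 T cells, Cxcl9 had 2.42 to 101 CPM (median 19.6), Cxcl10 91.2 to 722 CPM (median 168) and Cxcl16 24.6 to 119 CPM (median 61.8). As a percentage of the macrophage level in the same library, these were 1.23 to 18.8% for Cxcl9 (median 4.32%), 3.27 to 19.2% for Cxcl16 (median 8.71%) and 13.02 to 182% for Cxcl10 (median 35.1%). Cxcl10 was above the macrophage level in libraries 10 (130.04%) and 12 (182%, in 42 cells), and the Cxcl10 percentage was above that of Cxcl9 in 11 of 11 libraries. These levels were carried by few cells. In library 12, 6 CD8 T cells with Havcr2 and no Tcf7 held 234 Cxcl10 UMIs. Over all libraries, the 10% of CD8 T cells with the most Cxcl10 held 86.95% of its UMIs, and 1 cell held 179 of 2399. The C1q genes, which define macrophages and which the definition of T cells limits, were at 0.717 to 3.27% of the macrophage level (median 1.27%). At least 1 Cxcl10 UMI was found in 19.2% of CD8 T cells (exact interval 17.9 to 20.5%) and 3.12% of B cells, on equal depth in 9.83% and 1.86%. For Cxcl9 the shares on equal depth were 2.38% and 1.49%, and for Cxcl16 4.47% and 3.72%. Without library 10 the B cell shares were 2.88% for Cxcl10, 2.88% for Cxcl9 and 7.19% for Cxcl16, so the Cxcl9 and Cxcl16 shares of CD8 T cells were not read as above background. The ratio of Cxcl10 to Cxcl9 UMIs was 8.46 in CD8 T cells at the median (1.19 to 298) and 1.57 in macrophages. The highest ratio, in library 12, rested on 1 UMI of Cxcl9. Whether free RNA or cells captured together take part in these counts was not tested.

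Other lymphocytes were less clear. In conventional CD4 T cells the percentages of the macrophage level were 2.11 to 73.7% for Cxcl9 (median 13.6%), 7.23 to 111% for Cxcl10 (median 26.8%) and 10.1 to 35.7% for Cxcl16 (median 14.4%), with Cxcl10 above Cxcl9 in 5 of 9 libraries. In NK cells, Cxcl10 was 232, 702 and 1982 CPM in the 3 libraries with at least 20 cells, 45.3 to 342% of the macrophage level. These levels rested on few cells. In library 7, 1 cell held 62 of the 110 Cxcl10 UMIs and 1 cell all 62 Cxcl9 UMIs, and in library 5, 1 cell held 39 of the 141 Cxcl10 UMIs.

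**Figure D5:**
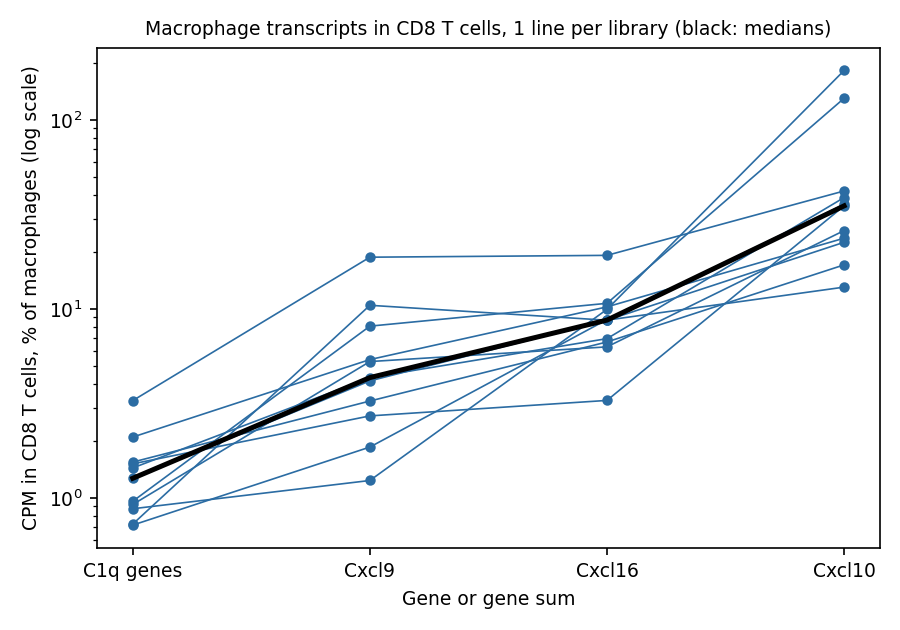
Level of each ligand and of the C1q genes in CD8 T cells as a percentage of the macrophage level of the same library, on a log scale with 1 line per library and the medians in black. Cxcl10 has a median of 35.1%, against 4.32% for Cxcl9, 8.71% for Cxcl16 and 1.27% for C1q.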

How the data were processed

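CD45+ cells of 12 samples were profiled with 10x Genomics 3′ v3 chemistry. The authors deposited the UMI counts of every library in a single matrix that was not normalized. The submitters' processing notes name Cell Ranger 2.1.1, Seurat and mm10, whereas the matrix header names software version 3.0.2. For the annotation and the strand setting, nothing is given in these sources, and 99.6% of gene identifiers matched GENCODE M21.

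The study's limits were applied: over 200 and under 5000 genes per cell, and no more than 10% of UMIs from mitochondrial genes. Each of 15 classes required UMIs of its lineage genes and limited those of the other lineages (T cells, for example, needed at least 2 UMIs of Cd3d, Cd3e, Cd3g, Trac, Trbc1 and Trbc2, and few of the C1q and other myeloid genes). A cell that passed for several classes was left out (105 cells). No doublet caller was run, and these limits are the sole guard against cells captured together. Depth sets the precision, and intervals and floors (3 counts) cover counting error only.

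UMIs were summed by class and library and scaled to CPM. Ratios within a library used a pseudocount of 0.5 UMIs. For equal depth, cells were thinned to 1000 UMIs and shallower cells left out. The planned edgeR test of EZH2i against vehicle was not run, since the library numbers match no sample label, and order and cell numbers were not used to assign them. Named genes were the 5 members, fixed pathway lists, and for each member the 5 genes with the most similar levels over classes. The members and lists were chosen with earlier results of these data known. Alternatives varied the mitochondrial limit, gate minimums, exclusion limits, scaling, depth, cell minimum, libraries and likeness measure, and a looser C1q limit, another NK gate and pooled values without each library were added after the data were seen. The code was tested on simulated data. Some genes of the lists are not reported here. The tools were matplotlib 3.10.9, pandas 2.3.3, scipy 1.17.1 and numpy 2.4.6 under Python 3.11.15.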

Additional observations from a re-analysis of the deposited data

How the results depend on the processing

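The 33 ratios between classes or states were computed again under 22 alternatives each, 726 values in all, and 719 moved by less than 1 standard deviation over libraries. The others kept their sign. On equal depth, the log2 ratio of Cxcl16 in macrophages over type 1 dendritic cells fell from 0.82 to 0.32, that of Cxcr6 in CD8 over CD4 T cells went from -0.36 to -0.81, over macrophages from 10.37 to 8.66, and over type 1 dendritic cells from 7.03 to 4.09. The last was 6.03 with at least 50 cells per library. Weighting cells equally gave -0.63 for Cxcr6 in CD8 over CD4 T cells and 1.83 in place of 0.83 in Havcr2+ over Tcf7+ CD8 T cells, which ranged from 0.76 to 1.27 when libraries were left out in turn, and was 1.70 in the 3 libraries with Y-linked transcripts and 0.46 in the 2 without. The Cxcr3 ratio of these states ranged from -1.97 to -1.21 when libraries were left out in turn. Equal depth and the mitochondrial limit of 5% gave values outside this range. On equal depth the Cxcr3 ratio took the same direction in only 3 of 5 libraries. Ratios of Cxcr6 to classes near 0 depend on the pseudocount, which the thinning enlarges.

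Both signs occurred for 2 ratios that were not called. Cxcl9 in macrophages over monocytes ranged from -0.30 to 0.03 when libraries were left out in turn. Cxcl10 in macrophages over neutrophils ranged from -0.38 to 0.32, was -0.69 on equal depth, 0.55 in libraries with Y-linked transcripts and -0.43 in those without. Depth limits the receptors, since Cxcr3 in Tcf7+ CD8 T cells rested on 1 to 50 UMIs per library. No paired analysis was possible because the columns carry library numbers that no label ties to the samples or their replicate numbers.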

Other observations

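The genes whose levels were most like each member were sought over 12 classes, among 8513 genes with a median of at least 20 CPM in a class, as the Pearson correlation of log2(median CPM + 1). The classes come from the same libraries, and no p is given. For Cxcl10 they were Metrnl (0.940), Rnf213, Oas2, Xdh and Xaf1 (0.888), of which Rnf213, Oas2 and Xaf1 are known as interferon-stimulated genes. For Cxcl9 they were Mmp19 (0.916), Spon1, Gatm, Tbxas1 and Ccdc86 (0.898), and for Cxcl16 Sh3pxd2b (0.934), Anxa4, Trip10, Rap2a and Fbxo18 (0.893). For Cxcr6 they were Gm47015 (0.999), Ptpn13, Cd5, Sv2c and Neb (0.993), and for Cxcr3 Celsr1 (0.908), Dennd2d, Taf1, Ubash3a and Nrn1 (0.836). Between members the values were 0.746 for Cxcl9 and Cxcl16, 0.587 for Cxcl9 and Cxcl10, 0.242 for Cxcl10 and Cxcl16 and 0.692 for Cxcr3 and Cxcr6. With Spearman correlation 0 of the 5 genes for Cxcr3, 1 for Cxcl16 and 2 for each of the other members were found again.

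Cells with both Ly6c2 and C1q UMIs carried all 3 ligands. No check genes were set for this class, and whether it includes cells captured together was not tested. In the 8431 Ly6c2+ C1q+ cells, 87.2% had a Cxcl16 UMI, 43.0% a Cxcl10 UMI and 35.8% a Cxcl9 UMI, at a median depth of 6142 UMIs, and their 10% with the most Cxcl10 held 79.9% of its UMIs. They were above macrophages for Cxcl9 and Cxcl10 in 11 of 12 libraries each, with libraries 5 and 9 as the exceptions, and could not be ordered for Cxcl16 (medians of 669 and 706 CPM, macrophages above in 8 of 12 libraries).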
